A study of Gallus gallus with 9 samples.

Results

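Genes of synaptic vesicles and of vesicle fusion were described in the olfactory placode of the chick embryo (Gallus gallus) at Hamburger and Hamilton (HH) stages 16, 18 and 20. The genes were chosen by name, not by their values. They are those of the array's annotation whose symbol begins SV2, SYT, STX, STXBP, VAMP, CPLX or RAB3, or SNAP followed by a number, together with SYN1, SYN2, SYN3, SYP, SYNGR1, UNC13A, UNC13B, RIMS1, RIMS2, BSN and NSF. The array held 71 of them on 146 probe sets, of 13008 annotated genes in all, and 29 of the 71 had a single probe set. The prefix RAB3 also took in 11 genes from RAB30 to RAB39, which are other small GTPases of membrane traffic. SV2A, CPLX2, SYN1, SYN3, BSN and RAB3A were not analysed here.

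The olfactory placode is a thickening of the head ectoderm that forms the sensory epithelium of the nose and gives rise to migrating neurons, among them those that make gonadotropin-releasing hormone (GnRH). Placodes came from chick embryos for which the labels give neither a strain nor a treatment, with 3 samples called biological replicates at each of the 3 stages and 1 Affymetrix array per sample. Whether a sample pooled several embryos is not given, and p-values therefore reflect only how far these 9 samples spread. In bulk tissue, fewer cells of a type and less RNA per cell cannot be told apart.

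A vesicle fuses with its target membrane when SNARE proteins on either side wind together: VAMP proteins on the vesicle, syntaxins (STX) and SNAP proteins on the target. Synaptotagmins (SYT) with calcium-binding domains trigger the final step, complexins (CPLX) clamp and assist it, syntaxin-binding proteins (STXBP), UNC13 and RIMS proteins prepare the vesicle, RAB3 proteins guide it to the membrane, and NSF takes used SNARE complexes apart. Some members, such as SNAP25 and synaptophysin (SYP), are used mainly by neurons and endocrine cells, while others, such as SNAP23, STX7 and VAMP7, serve membrane traffic in most cells.

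Summed signal over the chicken probe sets ranged from 3670608 to 8339401 between arrays, and the highest was that of HH16 replicate 1. Levels are therefore given as normalized log2(intensity + 16), which compresses the differences of dim genes. Fold changes are likewise those of normalized intensity + 16, not of the transcript. A probe set was called above background on an array where its signal exceeded the 99th percentile of that array's probe sets for viruses. That limit was an intensity of 13.9 on HH18 replicate 2 and between 6.17 and 8.70 for the rest. Of the 9 tested olfactory placode and epithelium markers, 9 were above background on all arrays, and their summed normalized intensity was 7363 to 8465 at HH16, 8243 to 8424 at HH18 and 8089 to 8696 at HH20.

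Of the 71 genes, 43 were above background on all 9 arrays, 21 on some and 7 on none. The filter on dim probe sets left 60 to be tested, each by its brightest probe set. Between HH16 and HH20, 9 of these 60 passed limma's test (adjusted p under 0.05 over all tested probe sets), 6 higher and 3 lower, and 51 did not. That is 15.0% of the tested members against 14.0% of the 10616 tested genes of the array, of which 7.14% were called higher and 6.83% lower, so the members were called about as often as genes in general. Their median log2 change was 0.10, against 0.00 for all tested genes. By sign, 39 of the 60 were higher, against 5332 of the 10616 tested genes. All 3 arrays of HH20 lay above all 3 of HH16 in 16 of the 60 genes and below them in 5. The same held for 17.5% and 17.0% of all tested genes.

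**Figure D1:**
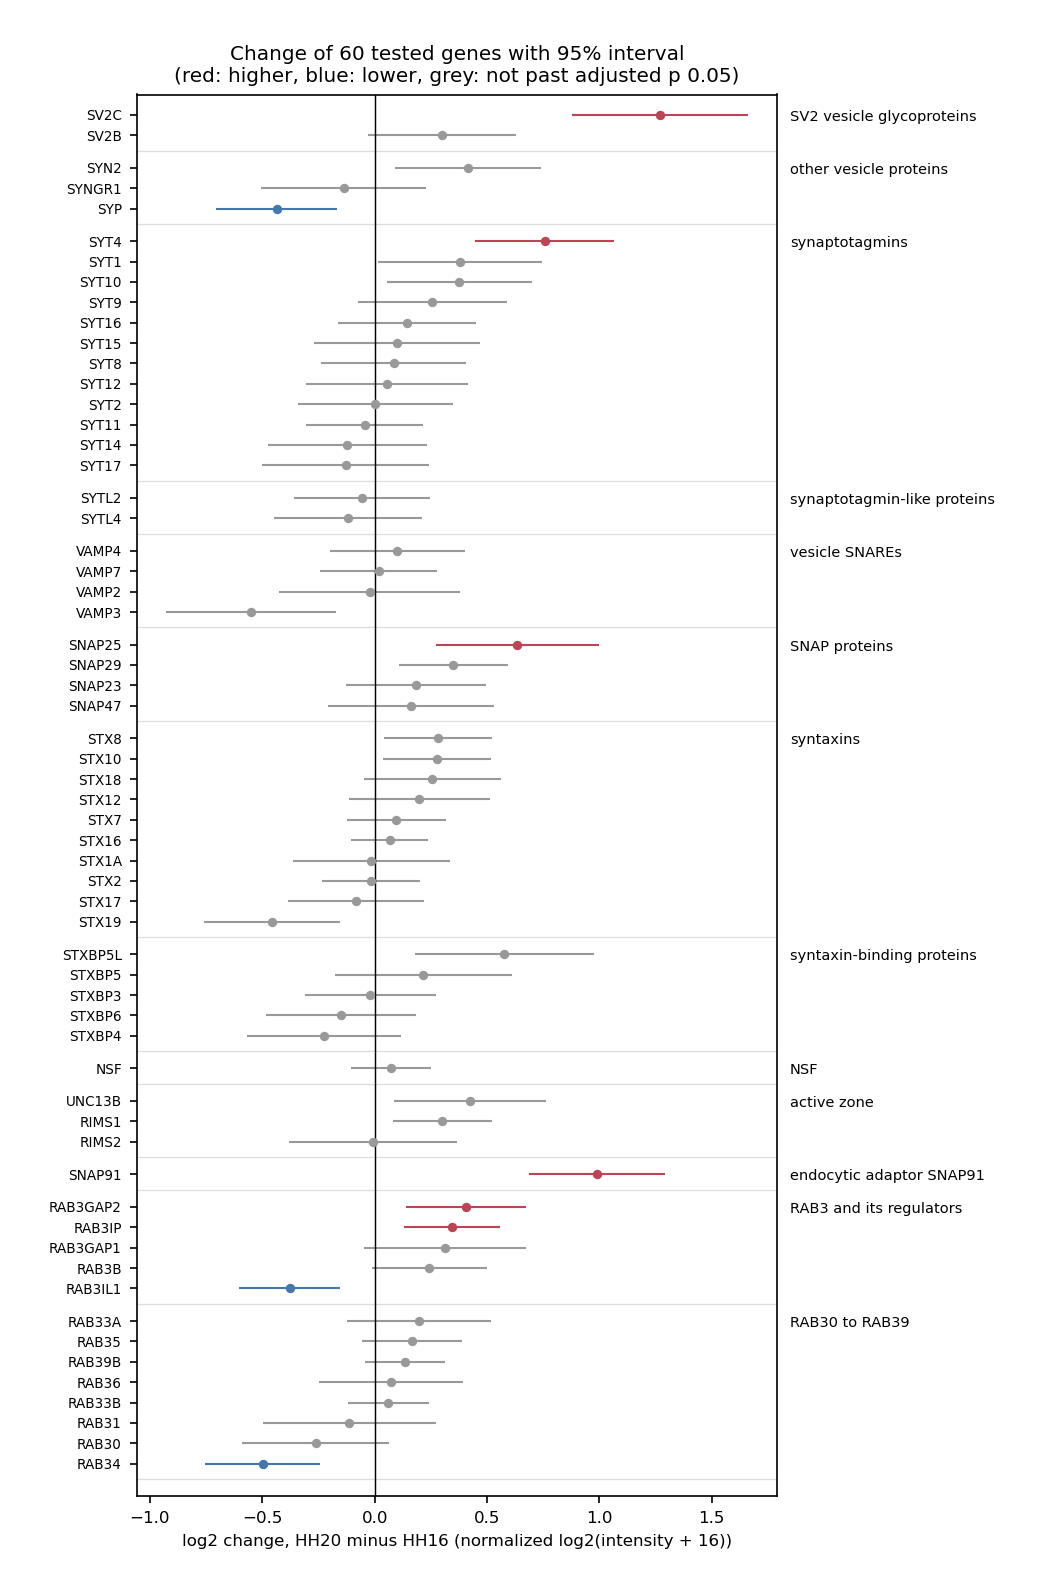
Log2 change from HH16 to HH20 (x axis, normalized log2(intensity + 16)) of the 60 tested genes (rows), grouped by role, with 95% intervals from the limma fit to 9 arrays. Red points are the 6 genes called higher, blue the 3 called lower and grey the 51 that did not pass; SV2C lies farthest to the right at 1.27.

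The rise of largest size was that of SV2C, a membrane glycoprotein of synaptic vesicles. Its log2 level was 5.70, 5.75 and 5.82 on the HH16 arrays, 6.80, 6.78 and 7.38 at HH18, and 7.36, 7.09 and 6.63 at HH20. Every HH18 and HH20 array lay above every HH16 array, while HH18 and HH20 overlapped. The change from HH16 to HH20 was 1.27 ± 0.19 on the log2 scale (SE, n = 3 per stage), or 2.41-fold, with limma adjusted p = 0.00025. From HH16 to HH18 it was 1.23 ± 0.19 (limma adjusted p = 0.001). From HH18 to HH20 the difference was 0.04, with a 95% interval of -0.35 to 0.43. In the deposited intensities SV2C read 66.8, 33.1 and 32.9 at HH16 and 206.2, 120.3 and 75.1 at HH20, so HH16 replicate 1, the array of highest summed signal, also read highest for SV2C at its stage before normalization. A dimmer probe set of SV2C, above background on 1, 1 and 3 arrays of the 3 stages, differed by 0.16 at HH18 (adjusted p = 0.75) and 0.35 at HH20 (adjusted p = 0.36). With the probe sets averaged, the difference at HH18 was 0.69 and not called (adjusted p = 0.05), and the rise at HH20 was 0.81 (adjusted p = 0.012). SV2B, the paralog on the array, was above background on 2, 2 and 3 arrays of the 3 stages, and its difference of 0.30 did not pass (adjusted p = 0.25).

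SYP, an abundant protein of the vesicle membrane, moved the other way. Its log2 level was 7.49, 7.62 and 7.67 at HH16, 6.98, 7.34 and 7.01 at HH18, and 7.19, 7.08 and 7.20 at HH20. All arrays of the later stages lay below all HH16 arrays, and HH18 replicate 2 was the highest of the later ones. The log2 change was -0.44 ± 0.13 (SE) from HH16 to HH20 (limma adjusted p = 0.035) and -0.49 ± 0.13 from HH16 to HH18 (limma adjusted p = 0.038). Neither call was firm. The call at HH20 was lost without HH16 replicate 2 (adjusted p = 0.096), HH16 replicate 3 (0.12), HH20 replicate 1 (0.092), HH20 replicate 2 (0.13) or HH20 replicate 3 (0.074), and another tested probe set of SYP differed by -0.20 (adjusted p = 0.45). The call at HH18 was lost without HH16 replicate 2 (adjusted p = 0.11), HH16 replicate 3 (0.12), HH18 replicate 1 (0.11), HH18 replicate 3 (0.084), HH20 replicate 1 (0.06), HH20 replicate 2 (0.053) or HH20 replicate 3 (0.054). SYN2, a synapsin that tethers vesicles, stood close to background with 1, 2 and 3 arrays above it at the 3 stages, and its difference of 0.42 did not pass (adjusted p = 0.095). For SYNGR1, a vesicle protein related to SYP, the difference was -0.14, with a 95% interval of -0.50 to 0.23.

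Of the synaptotagmins, 12 of 14 were tested and 1 was called, SYT4 (8.33%, against 14.0% of all tested genes). In mammals SYT4 resides on the Golgi and on secretory organelles of neurons and endocrine cells, and one of its calcium-binding domains has lost a residue needed to bind calcium. Its log2 level was 5.07, 5.47 and 5.33 at HH16, 5.69, 5.70 and 5.82 at HH18, and 5.88, 6.14 and 6.12 at HH20. The stages did not overlap, with HH18 between the others. The change to HH20 was 0.76 ± 0.15 (SE, 1.69-fold, limma adjusted p = 0.0028), while the difference at HH18 did not pass (0.45, adjusted p = 0.094). A second probe set of SYT4 rose by 0.67 (adjusted p = 0.0065). With its probe sets averaged, the difference of SYT4 at HH18 was 0.45 and passed (limma adjusted p = 0.039).

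SYT1, the calcium sensor of fast transmitter release, read 4.67, 4.57 and 4.85 at HH16, 4.94, 4.75 and 5.26 at HH18, and 5.37, 5.06 and 4.80 at HH20. The stages overlapped, and 2 of the 3 arrays were above background at HH16 and at HH18, against 3 at HH20. Its difference of 0.38 had a 95% interval of 0.01 to 0.74 and did not pass after adjustment over all probe sets (adjusted p = 0.19), and another probe set gave 0.39. The third probe set of SYT1 was above background on no HH16 array, so its level there is only a bound. SYT2, a sensor closely related to SYT1, was above background on 1 array in all, an HH20 array. SYT11, a synaptotagmin that does not bind calcium, was well above background on all arrays and differed by -0.04 (interval -0.31 to 0.22). Without a call, SYT10 was higher on all 3 HH20 arrays than on any HH16 array (0.38, adjusted p = 0.13), and so was SYT9, another calcium sensor (0.26, adjusted p = 0.35). Neither of the 2 tested synaptotagmin-like genes, SYTL2 and SYTL4, passed (-0.06 and -0.12).

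**Figure D2:**
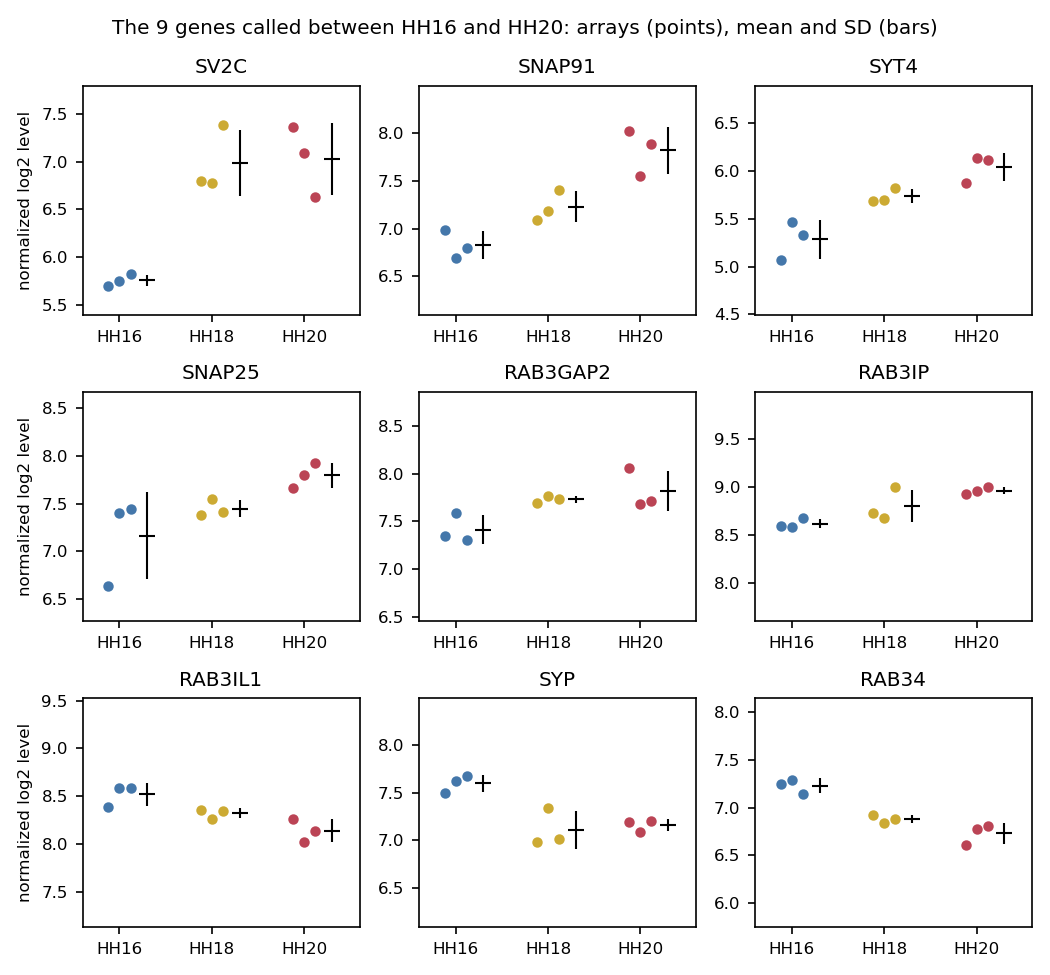
Normalized log2 level (y axis) on each array of the 9 genes called between HH16 and HH20 (panels), with 3 points per stage and the stage mean and SD as a bar to the right. The panels share a height but not their position. The HH18 arrays of SV2C overlap its HH20 arrays, while those of SNAP91 and SYT4 lie between the other stages.

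Among the SNAP proteins, SNAP25, the neuronal SNARE of the plasma membrane, was the 1 of 4 called, and it rose. Of all tested genes, 14.0% were called. Its log2 level was 6.64, 7.40 and 7.45 at HH16, 7.38, 7.55 and 7.41 at HH18, and 7.67, 7.80 and 7.92 at HH20. HH16 replicate 1 was the lowest of the 9 arrays, and the HH20 arrays lay above all others. The change was 0.63 ± 0.17 (SE, 1.55-fold, limma adjusted p = 0.024). Without HH16 replicate 1 the change was 0.37 and not called (adjusted p = 0.078). Leaving out an array also ended the call for HH20 replicate 2 (0.074) or HH20 replicate 3 (0.097). Of 6 other probe sets of SNAP25, 3 were bright enough to be tested and all were higher by sign. The probe set with the largest change rose by 1.0 (adjusted p = 0.0039) and already passed at HH18 (adjusted p = 0.04). The others gave 0.49 (adjusted p = 0.058) and 0.18 (adjusted p = 0.66). Both the brightest probe set and that of the largest change are of types that can match more than 1 transcript. With such probe sets dropped, SNAP25 was not called (0.49, adjusted p = 0.062). The remaining SNAP proteins, which serve fusion in most cells, did not pass: SNAP29 gave 0.35 (adjusted p = 0.06), SNAP23 0.19 and SNAP47 0.16.

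Of the 4 vesicle SNAREs, 0 were called, against 14.0% of all tested genes. VAMP2, the SNARE of synaptic vesicles, was above background on 0, 1 and 1 arrays of the 3 stages, so its level at HH16 is only a bound, and its stages overlapped (difference -0.02, interval -0.43 to 0.38). VAMP3, the SNARE of recycling endosomes, read 7.29, 6.93 and 7.34 at HH16, 6.87, 6.65 and 6.14 at HH18, and 6.54, 6.48 and 6.89 at HH20. All later arrays lay below the HH16 arrays, and the differences came to -0.64 at HH18 (adjusted p = 0.053) and -0.55 at HH20 (adjusted p = 0.059), both just short of the threshold. VAMP7, a SNARE of lysosomes and of membrane addition in growing neurites, differed by 0.02 (interval -0.24 to 0.28).

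None of the 10 tested syntaxins was called, against 14.0% of all tested genes. STX1A, the syntaxin of the synapse, read 7.14, 7.22 and 6.62 at HH16, 7.09, 6.97 and 7.39 at HH18, and 6.78, 7.11 and 7.05 at HH20. These stages overlapped throughout, the difference was -0.02 with an interval of -0.36 to 0.33, and the other 2 tested probe sets gave 0.25 and -0.17. The syntaxin with the lowest difference was STX19 (-0.46, adjusted p = 0.051), whose 3 HH20 arrays lay below its HH16 arrays. STX8, a SNARE of late endosomes, was 0.28 higher (adjusted p = 0.13), and STX18, a SNARE of the endoplasmic reticulum, was above background on 0 arrays at HH16 and on 3 and 2 later. STX2 and STX7, of the plasma membrane and the endosome, differed by -0.02 and 0.10 with intervals of -0.23 to 0.20 and -0.12 to 0.32. A dimmer probe set of STX2, above background on all arrays, gave 0.36 (interval 0.02 to 0.70, adjusted p = 0.18). Of the 5 tested syntaxin-binding genes, 0 were called, against the same 14.0%. The difference of largest size among them was that of STXBP5L, a tomosyn that occupies syntaxin in place of VAMP (0.58, limma adjusted p = 0.059). STXBP5L stood close to background, with 2, 2 and 3 arrays above it at the 3 stages. STXBP3, the syntaxin-binding protein of non-neuronal secretion, differed by -0.02 (interval -0.31 to 0.27). NSF, bright on every array at 9.42 to 9.64, differed by 0.07 (interval -0.11 to 0.25).

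At the active zone, where vesicles dock, 3 of 4 genes were tested and 0 were called, against 14.0% of all tested genes. UNC13B, which primes vesicles, read 8.18, 7.66 and 7.61 at HH16, 8.13, 8.10 and 8.67 at HH18, and 8.32, 8.18 and 8.22 at HH20. HH16 replicate 1 lay level with the later arrays, apart from its own stage, and the difference was 0.42 (adjusted p = 0.11). RIMS1, a scaffold that binds RAB3, was higher on all later arrays than at HH16 and differed by 0.30 (interval 0.08 to 0.52, adjusted p = 0.077). A dimmer probe set of RIMS1 gave 0.02 (adjusted p = 0.96). RIMS2 differed by -0.01 (interval -0.38 to 0.36). UNC13A, the main priming factor of brain synapses, was above background on 2 arrays at HH16 and on 0 later.

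SNAP91 shares only its name with the SNAREs: it is the clathrin adaptor AP180, which retrieves vesicle membrane in neurons. Its log2 level was 6.99, 6.70 and 6.80 at HH16, 7.09, 7.18 and 7.41 at HH18, and 8.02, 7.55 and 7.89 at HH20. The stages formed an ascending series without overlap. The change was 0.99 ± 0.14 (SE, 1.99-fold, limma adjusted p = 0.00024). Neither step passed by itself (0.40, adjusted p = 0.13, and 0.59, adjusted p = 0.11), and the other 2 probe sets of SNAP91 were too dim to be tested.

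Among RAB3 and its regulators, 3 of 5 were called, against 14.0% of all tested genes, and all by small changes. RAB3IP, an exchange factor for RAB8 that is needed for primary cilia, read 8.60, 8.58 and 8.68 at HH16 and 8.93, 8.96 and 9.0 at HH20 (0.34 ± 0.10, SE, limma adjusted p = 0.036). RAB3GAP2, the non-catalytic subunit of the RAB3 GTPase-activating complex, read 7.35, 7.59 and 7.30 at HH16 and 8.06, 7.68 and 7.72 at HH20 (0.41 ± 0.13, limma adjusted p = 0.049). RAB3IL1, an exchange factor for RAB3A in mammals, read 8.38, 8.59 and 8.58 at HH16 and 8.27, 8.02 and 8.14 at HH20 (-0.38 ± 0.11, limma adjusted p = 0.029). These 3 differences were small beside that of SV2C. All 5 genes of this role, called or not, had no overlap between HH16 and HH20. Of them, 4 were higher and 1 lower, against 17.5% and 17.0% of all tested genes. RAB3GAP1, the other subunit of the complex, differed by 0.31 and did not pass (limma adjusted p = 0.28).

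The calls of these RAB3 regulators were not firm. That of RAB3IP was lost with any of the 6 arrays of the 2 stages left out (adjusted p = 0.064 to 0.11). That of RAB3IL1 was lost without HH16 replicate 2 (0.10), HH16 replicate 3 (0.11), HH20 replicate 2 (0.14) or HH20 replicate 3 (0.08). RAB3GAP2 did not pass without HH16 replicate 1 (0.11), HH16 replicate 3 (0.16), HH18 replicate 1 (0.058), HH18 replicate 2 (0.061), HH20 replicate 1 (0.26), HH20 replicate 2 (0.062) or HH20 replicate 3 (0.069). Other tested probe sets did not pass either: 2 of RAB3IL1 gave -0.13 and 0.03, and 1 of RAB3GAP2 gave -0.03. RAB3B, the RAB3 GTPase on the array, was higher at HH20 than on all earlier arrays (6.66, 6.70 and 6.63 against 6.34 to 6.49), a difference of 0.24 that did not pass (adjusted p = 0.24).

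Of the 8 tested genes from RAB30 to RAB39, 1 was called (12.5%, against 14.0% of all tested genes). RAB34, which acts at the Golgi and in the building of primary cilia, read 7.25, 7.29 and 7.14 at HH16, 6.92, 6.84 and 6.89 at HH18, and 6.61, 6.78 and 6.81 at HH20. The stages formed a descending series without overlap, and the change was -0.50 ± 0.12 (SE, limma adjusted p = 0.013). The call ended with HH16 replicate 2 left out (adjusted p = 0.051) and with HH20 replicate 1 left out (0.08). It was also lost with arrays centred on their medians (0.25) and with the values as deposited. RAB35, a GTPase of endocytic recycling, and RAB33B, of the Golgi, differed by 0.17 and 0.06 and did not pass. Without the genes from RAB30 to RAB39, 8 of 52 tested members were called (15.4%, close to the 14.0% of all tested genes).

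**Figure D3:**
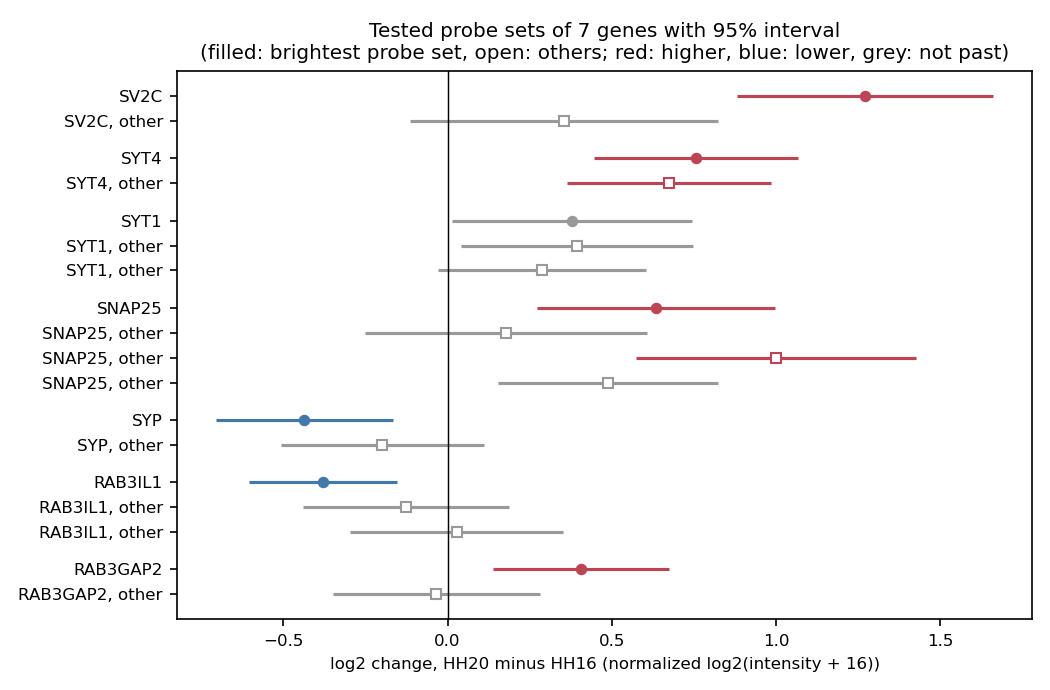
Log2 change from HH16 to HH20 (x axis, normalized log2(intensity + 16)) of each tested probe set of 7 genes (rows), with 95% intervals; filled circles are the brightest probe set of a gene, open squares the others, red higher, blue lower and grey not called. Both probe sets of SYT4 rose, at 0.76 and 0.67, and 2 of 4 for SNAP25, while SV2C, SYP, RAB3IL1 and RAB3GAP2 were called by their brightest probe set only.

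The 11 members that were not tested were CPLX1, CPLX3, CPLX4, UNC13A, SYT6, SYT13, SYTL1, STX11, RAB32, RAB38 and RAB39A. The 3 complexins were above background on 0, 1 and 1 of the 9 arrays, in each case an HH20 array. SYT6, SYT13, SYTL1, STX11, RAB32, RAB38 and CPLX1 were above background on no array, which on these arrays gives an upper bound for the probe set and not an absence of the transcript. Whether a gene was seen above background differed between its own probe sets. SNAP25, SYP and STX1A each had at least 1 probe set above it on all 9 arrays, and also 3, 1 and 1 probe sets above it on no array. VAMP2 and each complexin had a single probe set.

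**Figure D4:**
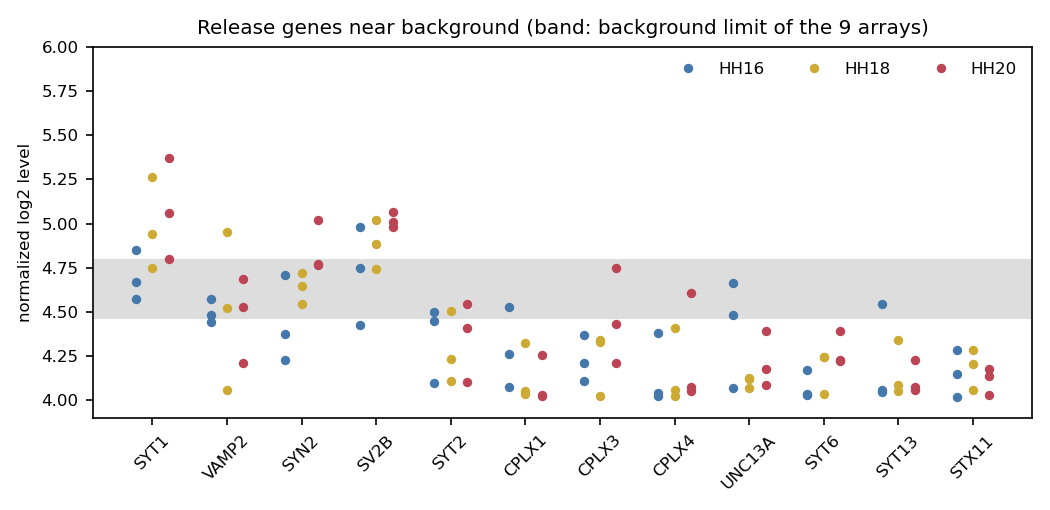
Normalized log2 level (y axis) on each array (points, coloured by stage) of 12 release genes that lie near or below background (x axis). The grey band spans the lowest level counted as above background on the 9 arrays, 4.47 to 4.79; SYT1 is above background on all 3 HH20 arrays and CPLX1 on none of the 9.

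The 2 steps were also compared. From HH16 to HH18, 2 of 60 members were called, SV2C higher and SYP lower, which is 3.33% against 5.90% of all tested genes (2.92% higher and 2.98% lower). From HH18 to HH20, 0 of 60 were called by limma, against 0.471% of all genes. An unadjusted p under 0.05 was found for 3 of the 60, SNAP91, STX12 and STXBP5L, and for 1052 of the 10616 tested genes. With limma's array weights, SNAP91 was called in this step (0.65, adjusted p = 0.043). The median change of the members was 0.07 in the earlier step and 0.01 in the later step.

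Whether the later step differed from the earlier step was tested within the same model, and limma called 0 of 60 members, against 0.0188% of all genes. SV2C had the difference of largest size, -1.18 ± 0.32 (SE, unadjusted p = 0.0018, adjusted p = 0.22), so an uneven pace of its rise was not shown beyond the correction. Unadjusted p was under 0.05 for 5 members in all, the others being SYP, VAMP3, STX12 and STX18. For this difference such p-values were not counted over all tested genes, so no excess among the members can be read from the 5. STX12, a SNARE of recycling endosomes, read 5.53, 5.09 and 5.17 at HH16, 4.97, 5.04 and 5.14 at HH18, and 5.39, 5.53 and 5.47 at HH20, with the later-step difference of 0.42 short of the threshold (adjusted p = 0.35).

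How closely the 51 uncalled differences between HH16 and HH20 were bounded could be read from their intervals. On the scale of log2(intensity + 16), all 51 had a 95% interval within 1 unit of 0. Of these, 27 had an interval within 0.5. For dim genes, such as SYT2 and VAMP2, this does not bound the fold change of the transcript. The added 16 units of intensity compress the differences of such genes. Among the dimmer probe sets of uncalled members, 2 passed, 1 of RAB31 and 1 of SYT12. Both were lower at HH18 than at HH16 (limma adjusted p = 0.049 and 0.041), and that of SYT12 was above background on no HH18 array. In this step 1111 of all 24489 tested probe sets were called.

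Other genes of the vesicle cycle were taken from 4 lists that were chosen with earlier results of these samples known. Their shares called between HH16 and HH20 were 8.0%, 7.14%, 0% and 15.4% for release machinery, endocytosis, transmitter loading, and the exocyst with other SNAREs, against 14.0% of all tested genes. In a list of further release machinery, 2 of 25 tested genes rose between HH16 and HH20, 0 fell and 23 did not pass. They were CADPS, which primes dense-core vesicles (1.10 ± 0.14, SE, limma adjusted p = 5.2e-05), and PPFIA2, a liprin of the active zone (limma adjusted p = 0.0084). PPFIA2 was above background on no HH16 array and on all 3 HH20 arrays, so it was at least 1.23-fold higher, taking each dim array at its lowest level above background. In the list of vesicle endocytosis, 1 of 28 rose, 1 fell and 26 did not pass. The clathrin heavy chain CLTC rose by 0.32 and BIN1, an amphiphysin that bends membranes, changed by -0.58 (limma adjusted p = 0.011 and 0.018). Of 16 tested genes for transmitter synthesis and vesicle loading, 0 passed and 3 had an unadjusted p under 0.05. Over all tested genes, 3088 of 10616 had such a p. In the list of the exocyst and other SNAREs, 2 of 26 rose and 2 fell: the exocyst subunits EXOC3 (0.46) and EXOC6B (0.55) rose, EXOC8 (-0.74) and USE1, a SNARE of the endoplasmic reticulum (-0.68), fell. Median changes in the 4 lists were 0.08, 0.09, 0.08 and -0.04, against 0.00 over all tested genes.

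**Figure D5:**
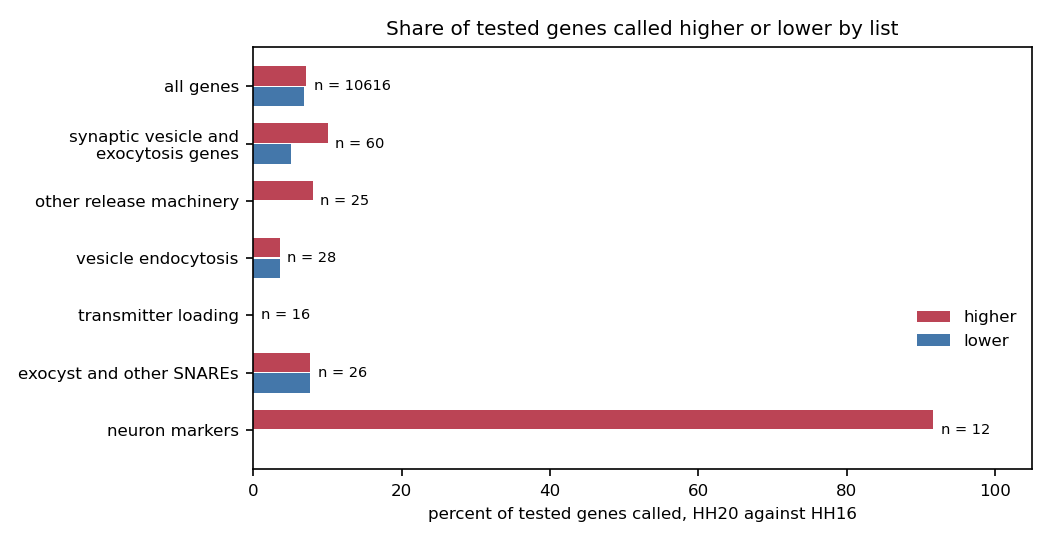
Percent of tested genes called higher (red) or lower (blue) between HH16 and HH20 (x axis) for all genes, the 60 tested synaptic vesicle and exocytosis genes, 4 further lists of the vesicle cycle and the neuron markers (rows), with the number tested. Members were called in 15.0%, all genes in 14.0%, and neuron markers in 91.7%. The lists, that of the neuron markers included, were chosen with earlier results of these samples known.

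Markers of neurons moved over the same stages. The marker lists, too, were chosen with earlier results of these samples known. Of 12 tested neuron markers 11 rose between HH16 and HH20 and 0 fell, among them STMN2, a microtubule regulator of growing axons (1.28 ± 0.12, SE, limma adjusted p = 2.9e-06). Their summed normalized intensity was 1546 to 1914 at HH16, 2356 to 2391 at HH18 and 3095 to 3376 at HH20, and of the 13 on the array only GAP43 was below background on all arrays. Of the 9 tested olfactory placode and epithelium markers, whose sums are given above, 3 were called higher and 0 lower. By sign 6 of the 9 were higher, and for 1 all HH20 arrays lay below all HH16 arrays. Markers of other tissues shifted too. In the tests 4 of 9 for mesenchyme, 2 of 7 for blood vessels and 2 of 6 for macrophages and leukocytes were called higher, none lower. Of all tested genes, 7.14% were called higher. By sign, 6 of 9, 5 of 7 and 6 of 6 were higher, against 5332 of 10616 tested genes. For 1 mesenchyme marker all HH20 arrays lay below all HH16 arrays. Of the markers on the array, 7 of 9, 4 of 7 and 2 of 7 in these lists were above background on all arrays. Their sums therefore include signal under background. Summed levels went from 2526 to 2784 at HH16 to 3357 to 3877 at HH20 for mesenchyme, from 148 to 305 to 427 to 491 for blood vessels, and from 180 to 224 to 349 to 360 for macrophages and leukocytes, of which C1QA was below background on all arrays. Neural crest and glia markers gave 1 rise and 2 falls of 5, with sums of 2035 to 2427 at HH16 and 1597 to 1896 at HH20. Erythrocyte markers gave 0 calls of 3 by limma. All 3 had an unadjusted p under 0.05, as did 3088 of the 10616 tested genes. Erythrocyte sums were 966 to 2148 at HH16 and 2114 to 2788 at HH20, with SLC4A1 below background throughout. The muscle markers MYOD1 and MYF5 were below background on all arrays. The part of these cell types in the changes of SV2C, SYT4, SNAP25, SNAP91 and the other called members was not tested.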

How the data were processed

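The authors deposited linear intensities, 1 value for each probe set on each array. The submitters' processing notes name MAS5; its version and target are not given in the sources used here. RNA was amplified and biotin-labelled with NuGEN kits, per the labels' protocols. From these intensities, log2(intensity + 16) of the 37693 chicken probe sets was quantile normalized between the 9 arrays. Dim probe sets were removed: 24489 exceeded their array's 40th percentile on 3 or more arrays and were tested. Stage means were fitted with limma 3.58.1 (lmFit, eBayes with intensity trend, R 4.3.3, 6 residual and 11.1 prior degrees of freedom). Two-sided p-values were adjusted by Benjamini-Hochberg across those probe sets, and calls were made at 0.05. The number of arrays limits the precision: the median standard error of a change was 0.148. A gene was represented by its brightest probe set. Entrez numbers matched the RefSeq table of GRCg7b for 70 members, with the same symbol in each.

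Members follow a rule on gene symbols that uses no measured value, but that rule, the lists and the tests were chosen with earlier results of these data known. Members called in any stage comparison were named, with a core list of release genes whatever their test, and up to 4 called genes of each further list. Other members were added to show values near the threshold or a tight interval, after their values were seen. Same-numbered replicates of different stages did not deviate together (0 of 9 pairs had a correlation over 0.1), so the numbers were not treated as pairs. Between arrays of different number, correlations ran from -0.177 (HH16 replicate 1, HH20 replicate 3) to 0.135 (HH16 replicate 1, HH18 replicate 3).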

Additional observations from a re-analysis of the deposited data

How the results depend on the processing

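Of the 9 calls between HH16 and HH20, those of SV2C, SNAP91 and SYT4 failed the test under 1 alternative, the values as deposited without normalization (adjusted p = 0.067, 0.52 and 0.56). SV2C and SYT4 were tested in 21 alternatives and SNAP91 in 20. Once probe sets matching more than 1 transcript were dropped, SNAP91 had no probe set left to test, so its call rests on such a probe set. No called change turned its direction under any alternative run. With arrays centred on their medians, 4 members were called higher and 0 lower between HH16 and HH20. All 3 lower calls were lost there, of RAB34, SYP and RAB3IL1 (adjusted p = 0.25, 0.36 and 0.40), as were the higher calls of SNAP25, RAB3IP and RAB3GAP2. The number of members called between HH16 and HH20 was 9 of 60, with 10.9% of all tested probe sets called. As deposited it was 0 (0.719% of all tested probe sets). It was 4 with arrays centred on their medians (3.29%) and 15 with array weights (15%). Once probe sets matching more than 1 transcript were dropped, 4 of the 48 members still tested were called (10.6%). With each array left out the number ranged from 4 to 14, and the share over all probe sets from 5.78% to 13%. The number was 14 when HH18 replicate 3 was omitted (13%). It was 5, 4 and 5 when HH20 replicates 1, 2 and 3 were omitted in turn (5.78%, 6.59% and 7.57%). Between HH16 and HH18 the number was 2, with 4.54% of all tested probe sets called. It was 0 as deposited (0.18%) and 1 with no filter on dim probe sets (71 members tested, 1.7%). In a fit to the arrays of those stages it was 1 (2.36%), and without the intensity trend also 1 (2.64%). With probe sets averaged by gene it was 1 (4.67%). Without HH16 replicate 1 and HH18 replicate 2 it was 4 (1.65%). The number ranged from 1 to 4 with each array left out, and the share over all probe sets from 1.63% to 4.07%. The number was 4 when HH16 replicate 1 was omitted (3.9%). It was 1 for HH16 replicates 2 and 3, HH18 replicate 3 and each HH20 array. The call of SV2C at HH18 was lost as deposited (adjusted p = 0.47) and with probe sets averaged by gene (0.05). With that averaging SYP was not called at HH18 either (0.079), and the 1 member called was SYT4 (0.45, limma adjusted p = 0.039). Between HH18 and HH20 the number of members called was 0 (0.359% of all tested probe sets), and 1 with array weights (0.58%). It stayed 0 with each array left out, as did the number for the difference between the steps. With the replicate block, the number was 7 between HH16 and HH20 (9.47% of all tested probe sets) and 1 between HH16 and HH18 (3.34%). With probe sets averaged by gene, the changes from HH16 to HH20 were 0.19 for RAB3GAP2 and -0.16 for RAB3IL1. The cause of these differences was not tested. The median change of all tested probe sets between HH16 and HH18 was -0.25 as deposited and -0.17 with arrays centred on their medians. Under these settings the change of SV2C was 0.88 and 0.96, and that of SYP -0.89 and -0.81, so both lay on their own side of that median. Over all probe sets, 566 were higher and 545 lower in this step, against 61 and 535 with arrays centred on their medians and 2 and 42 as deposited. From HH18 to HH20 the split was 62 higher and 26 lower, against 87 and 3 and 10 and 0. Signal over background limits the 21 members above it on some arrays and the 7 above it on none.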
